A study of Mus musculus with 27 samples.

Results

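To determine where H3K4 methylation was lost at gene starts, the merged regions that hold the main promoter of a single protein-coding gene were examined. A merged region is a stretch of the genome in which the authors called a peak of H3K4me1, H3K4me2 or H3K4me3. Members were at least 1000 bp and under 8000 bp wide, all protein-coding transcription start sites (TSSs) inside them belonged to 1 gene, and these included the most upstream TSS of that gene in GENCODE vM1 on assembly NCBIM37 (mm9). By this rule 9988 of 358833 merged regions (2.78%) were main promoters, 1 for each of 9988 genes. Among the 80022 merged regions in this range of width they made up 12.5%, and they covered 35.5 Mb. The members were chosen by 2 measured values, the peak calls and the region widths, so both are given below as a description. The readout was the presence of the identical region in the authors' list of regions with decreased H3K4me1 or in their list of regions with decreased H3K4me2 in mutant hearts, which the rule did not use.

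Chromatin immunoprecipitation and sequencing (ChIP-Seq) was performed on whole hearts of C57BL/6 mouse embryos at E11.5. Control hearts were *Tnnt2::Cre; Kmt2d fl/+; mTmG/+* and mutant hearts were *Tnnt2::Cre; Kmt2d fl/fl; mTmG/+*, so that both carried Cre, the mTmG reporter and at least 1 floxed *Kmt2d* allele, and the controls were themselves heterozygous. For each genotype there were 3 pools of 30 hearts, each divided into input, H3K4me1, H3K4me2 and H3K4me3 libraries, which makes 24 heart libraries of 27 in all. The other 3 libraries, KMT2D ChIP-Exo in cardiomyocytes derived from embryonic stem cells, were not analysed here. Cre was made from the *Tnnt2* promoter, which is active in heart muscle cells, whereas the hearts assayed also held endocardium, epicardium and blood. In such tissue, fewer cells of a type and less mark per cell cannot be told apart. Merged regions held the TSS of 10 of 10 annotated genes with heart muscle marker symbols, 3 of 6 endothelial markers, 4 of 4 epicardial markers and 3 of 5 erythroid markers. The deposited lists hold positions only, without a read count, fold change or value per replicate. The depth behind a region is therefore unknown, no difference could be set against the spread between pools, and absence from a list does not show that a region was unchanged. All intervals below are 95% intervals that treat regions as independent draws and cover counting error only.

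KMT2D belongs to the COMPASS family of enzymes, which add methyl groups to lysine 4 of histone H3. At an active promoter, H3K4me3 lies over the first nucleosomes after the TSS, and H3K4me2 and then H3K4me1 spread further out on either side. Most vertebrate housekeeping genes start in CpG islands, which are kept free of DNA methylation and bind COMPASS complexes through CXXC domains, whereas many tissue-specific genes start in CpG-poor sequence.

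The stretch just before the TSS shows how widely these promoters differ in sequence. The 6 stretches below are the 250 bases before the most upstream coding TSS, read 5′ to 3′ on the strand of the gene from assembly NCBIM37, with each CpG dinucleotide in capitals. The first pair are the called promoters of the cardiac gene lists with the fewest and the most CpGs, *Trdn* (triadin, a calcium release channel partner, chr10:32803039-32803288, plus strand) and *Atp2b1* (a plasma membrane calcium pump, chr10:98377536-98377785, plus strand). *Sgca* (alpha-sarcoglycan, chr11:94837642-94837891, minus strand) is shown because its promoter was in both decreased lists. The last 3 were chosen after their values were seen. *Top2a* (DNA topoisomerase II alpha, chr11:98885504-98885753, minus strand) stands for the mitosis genes with decreased H3K4me2. *Cldn5* (claudin 5 of endothelial tight junctions, chr16:18776690-18776939, plus strand) and *Hoxa5* (chr6:52154587-52154836, minus strand) stand for gene groups without a called promoter.
Trdn: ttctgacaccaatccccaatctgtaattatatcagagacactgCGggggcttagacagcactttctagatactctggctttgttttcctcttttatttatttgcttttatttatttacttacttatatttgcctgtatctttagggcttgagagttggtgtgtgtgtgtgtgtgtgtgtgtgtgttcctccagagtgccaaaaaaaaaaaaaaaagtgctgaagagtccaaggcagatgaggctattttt
Atp2b1: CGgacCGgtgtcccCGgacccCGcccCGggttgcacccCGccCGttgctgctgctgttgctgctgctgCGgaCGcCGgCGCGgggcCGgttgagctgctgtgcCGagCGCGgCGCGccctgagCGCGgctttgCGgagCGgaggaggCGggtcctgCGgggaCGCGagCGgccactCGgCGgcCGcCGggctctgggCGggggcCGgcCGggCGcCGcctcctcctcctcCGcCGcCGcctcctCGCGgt
Sgca: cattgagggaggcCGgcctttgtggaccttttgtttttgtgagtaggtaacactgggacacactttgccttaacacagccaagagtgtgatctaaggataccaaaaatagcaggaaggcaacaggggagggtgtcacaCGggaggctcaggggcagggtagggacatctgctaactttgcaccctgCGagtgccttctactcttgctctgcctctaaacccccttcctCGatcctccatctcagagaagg
Top2a: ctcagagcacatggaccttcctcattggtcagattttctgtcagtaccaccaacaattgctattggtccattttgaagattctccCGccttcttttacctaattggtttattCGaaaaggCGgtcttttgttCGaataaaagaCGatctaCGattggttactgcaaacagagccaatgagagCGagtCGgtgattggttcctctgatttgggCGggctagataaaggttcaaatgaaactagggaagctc
Cldn5: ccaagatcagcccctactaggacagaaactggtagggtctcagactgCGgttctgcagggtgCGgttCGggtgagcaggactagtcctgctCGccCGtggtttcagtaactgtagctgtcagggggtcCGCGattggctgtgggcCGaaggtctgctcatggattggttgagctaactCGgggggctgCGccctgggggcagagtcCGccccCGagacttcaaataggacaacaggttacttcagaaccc
Hoxa5: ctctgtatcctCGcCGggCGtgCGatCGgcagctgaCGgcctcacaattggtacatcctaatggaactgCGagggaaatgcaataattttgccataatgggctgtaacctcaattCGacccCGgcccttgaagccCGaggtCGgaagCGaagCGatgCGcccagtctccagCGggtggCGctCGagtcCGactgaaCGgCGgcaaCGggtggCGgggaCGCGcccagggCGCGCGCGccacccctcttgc

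These stretches held 1 CpG in *Trdn*, 41 in *Atp2b1*, 4 in *Sgca*, 9 in *Top2a*, 12 in *Cldn5* and 28 in *Hoxa5*. Over all main promoters the median was 14 CpGs in the same 250 bases (quartiles 8 and 21). It was 17 (11 and 24) for the promoters with decreased H3K4me2, 4 (2 and 12.5) for those with decreased H3K4me1 and 13 (7 and 19) for those in neither list. The called *Trdn* promoter and the uncalled *Hoxa5* promoter therefore each lay on the side of the median opposite to their group.

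The main promoters were 3240 bp wide at the median (quartiles 2260 and 4580 bp), with a median reach of 982 bp upstream and 2077 bp downstream of the TSS, so that most of the marked stretch lay in the gene. The downstream edge fell in the first intron in 6173 promoters (61.8%) and in a later intron in 2449 (24.5%). A further 278 (2.78%) ended in the first exon, 656 (6.57%) in a later exon and 432 (4.33%) beyond the end of the transcript that starts at the main TSS. Their genes had a median length of 24884.5 bp. Of 22372 protein-coding genes, 9988 (44.6%) were represented in this way. The main TSS lay in no merged region in 7273 genes, in a region shared with another coding gene in 3154, alone in a region of 8000 bp or more in 1173 and alone in a region under 1000 bp in 784. At the lower limit of width, *Zfp791* and *Wdr17* (1000 bp) were just inside and *Wdr69* and *Wnt8a* (980 bp) just outside, and none of these 4 was in a list. At the upper limit, *Adnp2* and *Atp1b2* (7980 bp) were just inside and *Kcnn3* and *Oaz1* (8000 bp) just outside, and of these only *Adnp2* was in a list, that of decreased H3K4me2.

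Decreased H3K4me2 was a common call at main promoters and decreased H3K4me1 a rare one. The H3K4me2 list held 2598 of the 9988 promoters, or 26.0% (Wilson interval 25.2% to 26.9%), against 1.87% of all merged regions and 5.32% of the 80022 in the same range of width. The H3K4me1 list held 51 promoters, or 0.511% (0.389% to 0.671%), against 0.761% of all merged regions and 1.91% of those in the same range of width. Main promoters thus made up 38.8% of the 6699 regions with decreased H3K4me2 and 1.87% of the 2730 regions with decreased H3K4me1. Both marks were called at 3 promoters (0.0300%, Wilson interval 0.0102% to 0.0883%), against 0.0575% of all regions in this range of width. That background differed from the main promoters in the share of each list, as given above. The remaining 7342 promoters were in neither list.

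The place of the TSS in the gene separated these regions from other regions of the same width range. Of 1626 regions that held only an internal, alternative TSS of a coding gene, 11.8% had decreased H3K4me2, which is 14.2 percentage points below the main promoters (Newcombe interval of the difference 12.3 to 15.9). For H3K4me1 the order was the opposite, with 2.64% of internal promoters and a difference of -2.13 points (-3.04 to -1.44). Regions that held TSSs of several coding genes had the higher H3K4me2 share, 35.1% of 1258, and were wider. The difference of -9.04 points (-11.9 to -6.31) shrank to -3.69 points when each group was given the width mix of the main promoters. Regions with a non-coding TSS only had 4.90% of 2326 in the H3K4me2 list and 3.22% in the H3K4me1 list. Among the 64824 regions of this width with no annotated TSS, the shares were 1.40% and 2.10%.

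**Figure D1:**
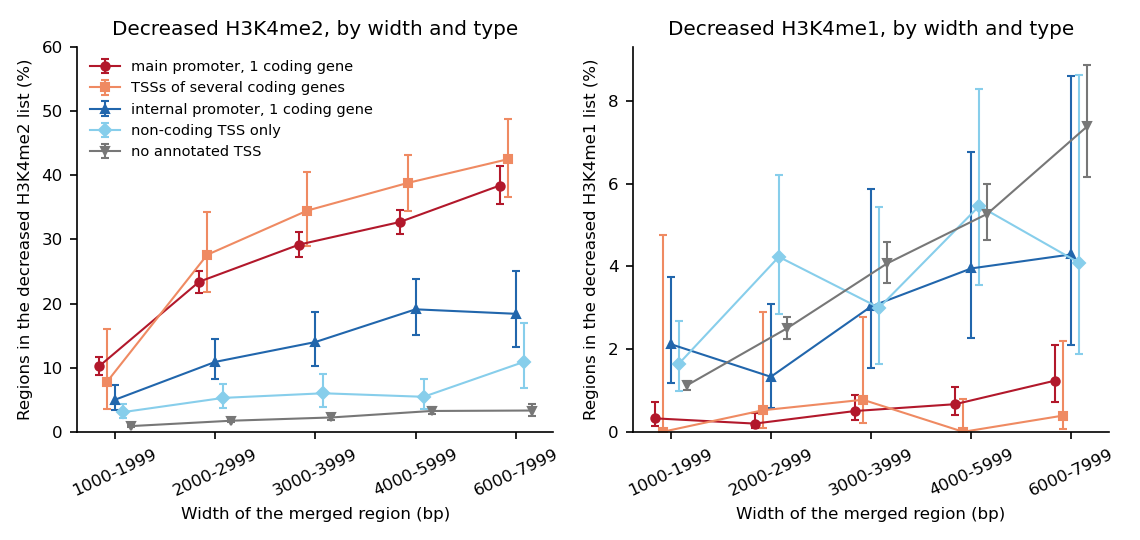
Share of merged regions in the decreased H3K4me2 list (left) and in the decreased H3K4me1 list (right), in percent, by region width in bp (x axis), for 5 kinds of region. Points are shares and bars are 95% Wilson intervals. Main promoters rise from 10.2% to 38.4% for H3K4me2 and stay at or below 1.24% for H3K4me1, where regions with no annotated TSS reach 7.39%.

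Wide promoters were called more often than narrow ones, and width moves with most of the comparisons that follow. For H3K4me2 the share was 10.2% of the 1842 main promoters under 2000 bp, 23.4% from 2000 to under 3000 bp, 29.2% to under 4000 bp, 32.7% to under 6000 bp and 38.4% of the 1046 promoters of 6000 bp or more. In the widest class, 18.4% of internal promoters and 3.32% of regions without a TSS were called. For H3K4me1 the widest main promoters reached 1.24% (Wilson interval 0.728% to 2.11%), against 7.39% (6.16% to 8.86%) of regions without a TSS. The part that read number in wide regions plays in these calls was not tested. Within 100 bp of the lower limit of width, decreased H3K4me2 was called in 5 of 128 main promoters just above it and in 9 of 133 just below it. Within 500 bp of the upper limit, it was called in 76 of 208 just below it and in 41 of 144 just above it.

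Promoters with decreased H3K4me2 reached further into the gene than those in neither list. Their median downstream reach was 2471 bp (quartiles 1767 and 3469 bp) against 1927 bp (1244.5 and 2922.8 bp), a difference of 544 bp (473 to 622 bp), and their median upstream reach was 1129 bp against 926 bp. The region extended at least 1000 bp downstream in 96.7% of the called promoters and in 83.9% of those in neither list, and at least 2000 bp in 65.5% and 47.6%. This difference went with width. Within width classes the downstream medians lay close together, for example 2317 bp and 2316 bp from 3000 to under 4000 bp, and the difference averaged over width classes was 37.2 bp. The position of the downstream edge in the gene also went with the calls. H3K4me2 was decreased in 27.6% of the promoters that ended in the first intron and in 27.5% of those that ended in a later intron. The share was 7.19% of those that ended in the first exon and 19.0% of those that ran past the transcript end (9.71% and 14.7% at the width mix of all main promoters).

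**Figure D2:**
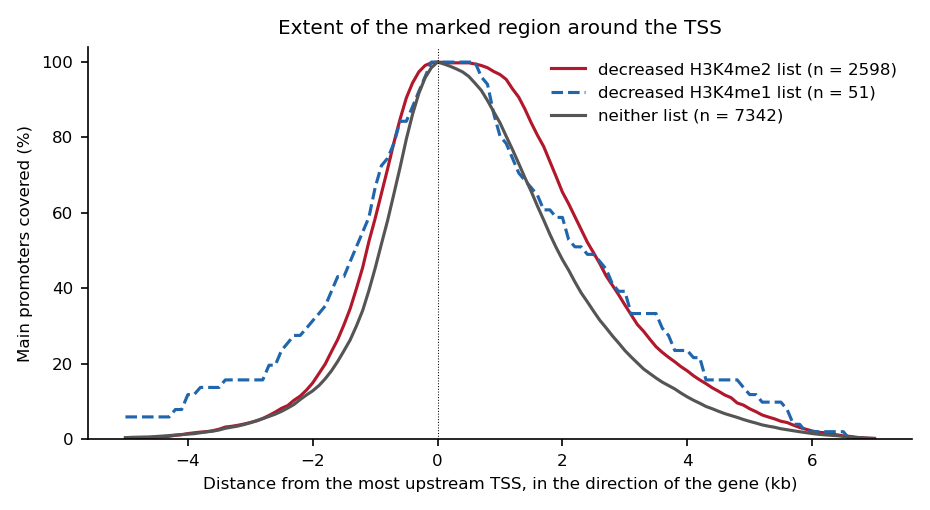
Percentage of main promoters whose marked region covers each position (y axis) by distance from the most upstream TSS in kb (x axis, positive values lie in the direction of transcription). Promoters with decreased H3K4me2 extend further downstream (median 2471 bp) than those in neither list (median 1927 bp), and the 51 promoters with decreased H3K4me1 extend furthest upstream.

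The promoters with decreased H3K4me1 were wider, at a median of 4320 bp, and reached further upstream. Their median upstream reach was 1305 bp (quartiles 840 and 2396.5 bp), and 31.4% of them extended at least 2000 bp upstream, against 14.9% of promoters with decreased H3K4me2 and 12.8% of those in neither list. At their width mix, all main promoters gave 22.0%. In 18 of 51 (35.3%) the upstream reach exceeded the downstream reach, which was so in 11.2% of the promoters with decreased H3K4me2, in 1470 of 7342 in neither list and in 17.2% of all main promoters at the same width mix. The order was not the same in every width class, since the 16 promoters from 4000 to under 6000 bp had a median upstream reach of 1118 bp, against 1413 bp for all main promoters of that class. *Tekt4* (tektin 4 of cilia and flagella, 6089 bp upstream and 890 bp downstream), *Mybphl* (an atrial myosin-binding protein, 6023 and 1116 bp) and *Npas4* (an activity-induced transcription factor, 5934 and 685 bp) had the longest upstream reach of the 51.

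Base composition around the TSS separated the called from the uncalled promoters. Promoters were classed by the 300 bp around the TSS, from 250 bp before to 50 bp after it, as high-CpG (CpG observed over expected above 0.75 and GC above 55%), low-CpG (observed over expected below 0.48) or intermediate. H3K4me2 was decreased in 1388 of 3821 high-CpG promoters (36.3%, Wilson interval 34.8% to 37.9%), in 975 of 3830 intermediate ones (25.5%) and in 235 of 2334 low-CpG ones (10.1%, 8.91% to 11.4%). The difference between high-CpG and low-CpG promoters was 26.3 points (Newcombe interval 24.3 to 28.2). High-CpG promoters were also wider, and at the width mix of all main promoters the difference was 21.3 points. By CpG number, the share rose from 8.54% of promoters with 0 to 4 CpGs to 38.1% of those with 30 to 34, and was 36.0% at 35 or more.

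Calls of H3K4me1 were most frequent at low-CpG promoters. It was decreased in 37 of 2334 low-CpG promoters (1.59%, Wilson interval 1.15% to 2.18%), in 4 of 3830 intermediate ones (0.104%) and in 10 of 3821 high-CpG ones (0.262%), a difference between high-CpG and low-CpG promoters of -1.32 points (-1.93 to -0.838). Low-CpG promoters therefore made up 72.5% of the 51 promoters with decreased H3K4me1, 9.05% of those with decreased H3K4me2 and 28.1% of those in neither list.

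The GC content of the whole region and the CpG content around the TSS went with the H3K4me2 calls in opposite directions. Promoters with decreased H3K4me2 had more CpGs around the TSS than those in neither list (median 22 against 17), yet their regions held less GC overall (median 48.6% against 51.9%). When main promoters were divided into 5 equal classes of region GC, decreased H3K4me2 fell from 41.4% in the class of lowest GC (33.9% to 46.9% GC) through 35.1%, 28.4% and 17.6% to 7.66% in the class of highest GC (55.7% to 73.6%). At the width mix of all main promoters these ends were 39.0% and 9.11%. Among high-CpG promoters the range was wider, from 391 of 670 (58.4%, Wilson interval 54.6% to 62.0%) to 84 of 813 (10.3%, 8.42% to 12.6%). Among low-CpG promoters it ran from 14.3% to 3.82%. A CpG-rich start within a region otherwise low in GC was thus the composition most often called. Sequencing recovery also varies with GC content, and its part in these calls was not tested.

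**Figure D3:**
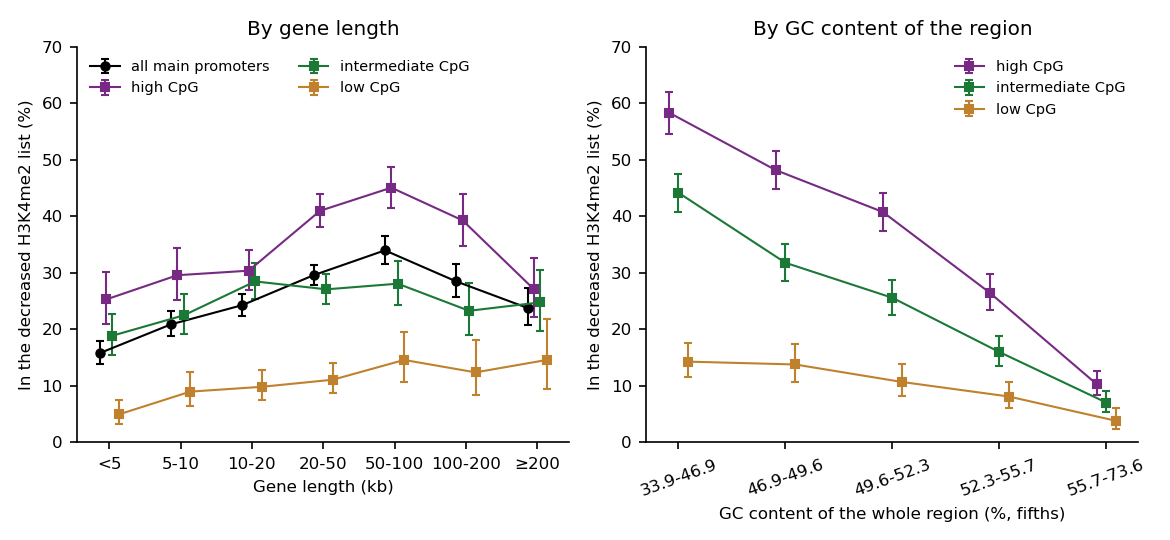
Share of main promoters in the decreased H3K4me2 list (y axes, percent) by gene length in kb (left) and by GC content of the whole region in 5 equal classes (right), with bars for 95% Wilson intervals and colours for the CpG class of the 300 bp around the TSS. The share peaks at 50 to 100 kb over all main promoters (34.0%), and falls from 58.4% to 10.3% with rising GC among high-CpG promoters.

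Genes of intermediate to long length had the most calls. H3K4me2 was decreased at 15.8% of promoters of genes under 5 kb, 20.9% at 5 to 10 kb, 24.3% at 10 to 20 kb, 29.6% at 20 to 50 kb and 34.0% (Wilson interval 31.6% to 36.5%) at 50 to 100 kb. The share then fell to 28.5% at 100 to 200 kb and 23.8% (20.7% to 27.3%) for genes of 200 kb or more. Genes of 100 kb or more exceeded genes under 10 kb by 8.20 points (Newcombe interval 5.55 to 10.9), or 7.67 points at the width mix of all main promoters. Among regions under 4000 bp the difference was 2.81 points and its interval, -0.140 to 5.86, included 0. The rise and fall was seen among high-CpG promoters, at 25.3% under 5 kb, 45.1% at 50 to 100 kb and 27.1% at 200 kb or more. Intermediate-CpG promoters stayed between 18.9% and 28.5% across the same classes. Low-CpG promoters rose from 4.96% under 5 kb to 14.6% at 50 to 100 kb, and were at 12.4% at 100 to 200 kb and 14.6% at 200 kb or more. The longest gene with a called promoter was *Fhit* (a fragile-site dinucleotide hydrolase, 1611944 bp, region 1860 bp wide), and the shortest was *D730045B01Rik* (309 bp, region 4380 bp wide). For H3K4me1, 14 of 2460 promoters of genes under 10 kb and 3 of 1567 of genes of 100 kb or more were called, a difference of -0.378 points whose interval, -0.782 to 0.0578, included 0.

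Short sequence motifs were counted in the same 300 bp on both strands, except that TATAAA was counted on the gene's strand from -45 to -15 relative to the TSS and CCAAT on both strands from -150 to -40. The SRF CArG box, which allows A or T at its inner positions, can contain CCAAT or TATAAA, and no other motif contains another. The ETS motif CCGGAAG was present in 19.4% of promoters with decreased H3K4me2, 12.5% of those in neither list and 10.9% of all 22365 coding genes with sequence. The NRF1 motif GCGCATGC was present in 7.16%, 3.97% and 3.35%, and the CRE motif TGACGTCA in 4.70%, 2.59% and 2.35%. Promoters with the CRE motif were called in 39.1% of 312 cases (Wilson interval 33.9% to 44.6%) and those without it in 25.6%. For the NRF1 motif the shares were 38.9% of 478 (34.6% to 43.4%) and 25.4%, and for the ETS motif 35.3% of 1423 (32.9% to 37.9%) and 24.5%. Since all 3 motifs contain CpG, the shares were also taken within CpG classes. Among high-CpG promoters they were 48.1% against 35.8% for the CRE motif, 44.0% against 35.7% for the NRF1 motif and 41.4% against 35.2% for the ETS motif.

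The other motifs gave smaller or opposite differences. CCAAT, found in 21.2% of all coding genes, was linked with a call in 29.3% of 2089 main promoters, against 25.2% of those without it. The E-box CACGTG (7.78% of all coding genes) gave 28.3% of 959 against 25.8%, and the SRF CArG box (1.46%) gave 26.3% of 118 against 26.0%. The TEAD motif GGAATG (13.4%) gave 24.3% of 1218 against 26.3%. These 3 are bound by factors with known roles in growth or heart muscle. The GC box GGGCGG (43.9%) gave 28.2% against 22.4% over all main promoters but 35.7% against 39.5% among high-CpG ones. TATAAA (2.51%) gave 14.8% of 108 (9.33% to 22.7%) against 26.1%. For the 6 genes with stretches printed above, matches were counted only within the window set for each motif. In these windows *Top2a* and *Cldn5* held both a CCAAT and a GC box match and *Atp2b1* held a GC box match. The printed *Trdn* and *Hoxa5* stretches also hold CCAAT or its reverse complement, but further upstream than the CCAAT window, so these were not counted. A match describes these letters and does not show a bound site.

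The calls at main promoters were compared with those elsewhere in the same genes. Among 700 genes with both a main and an internal promoter region in the range of width, H3K4me2 was decreased at the main promoter in 153 (21.9%) and at an internal one in 68 (9.71%). It was decreased at both in 21 genes, at the main promoter alone in 132 and at an internal promoter alone in 47. H3K4me1 was decreased at an internal promoter in 22 of these genes and at the main promoter in 5. In the gene bodies outside the main promoter there were 111311 other merged regions, of which 0.840% had decreased H3K4me2 and 0.915% decreased H3K4me1. Of the genes with a called main promoter, 9.47% (Wilson interval 8.40% to 10.7%) had another region with decreased H3K4me2 in the body, against 7.79% (7.20% to 8.43%) of the other genes. The former also held more other regions (median 5.50 against 4.00), of which 0.883% had decreased H3K4me2, against 0.823%. Within length classes under 100 kb the shares of genes lay closer, for example 1.91% and 2.33% for 5 to 10 kb and 6.11% and 5.67% for 20 to 50 kb. They were 12.3% and 11.7% for 50 to 100 kb. In longer genes they lay further apart, with overlapping intervals. The shares were 20.7% (16.2% to 25.9%) and 18.0% (15.3% to 21.1%) for 100 to 200 kb. For 200 kb or more they were 39.7% (32.3% to 47.7%) and 33.7% (29.7% to 38.1%). For decreased H3K4me1 in the body, the shares of all genes were 6.85% (5.94% to 7.89%) and 8.05% (7.45% to 8.69%). Genes with a called main promoter had the lower H3K4me1 share in every length class under 200 kb. At 20 to 50 kb, for example, the shares were 3.44% (2.37% to 4.96%) and 6.64% (5.60% to 7.86%). Only at 200 kb or more was the order the opposite, at 33.8% (26.7% to 41.6%) and 29.0% (140 of 483, 25.1% to 33.2%), with overlapping intervals.

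The nearest merged region within 5000 bp was far narrower than the main promoters and was called far less often. Its median width was 320 bp upstream and 440 bp downstream beside main promoters with decreased H3K4me2, and 400 and 460 bp beside the others. The main promoters had a median of 3240 bp, and the part of width in this gap was not tested. Upstream, the neighbour had decreased H3K4me2 in 61 of 1683 cases (3.62%) beside a called main promoter and in 146 of 4978 (2.93%) beside the others, against 1.87% of all merged regions. Downstream the shares were 1.22% and 1.47%. Decreased H3K4me1 in the downstream neighbour was found in 6 of 2055 cases (0.292%, Wilson interval 0.134% to 0.636%) beside a main promoter with decreased H3K4me2 and in 68 of 5635 (1.21%, 0.953% to 1.53%) beside the others.

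Gene classes differed widely. The shares below count the main promoters in each list of genes, and the share that all main promoters would give at the width mix of the list is set beside them. Of 40 lists with at least 10 main promoters, 19 lay above and 21 below that share. The Wilson interval lay wholly above it in 6 lists and wholly below it in 7. When CpG class was matched as well, 5 lists remained wholly above (splicing factors did not) and 6 wholly below (epicardial markers did not).

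**Figure D4:**
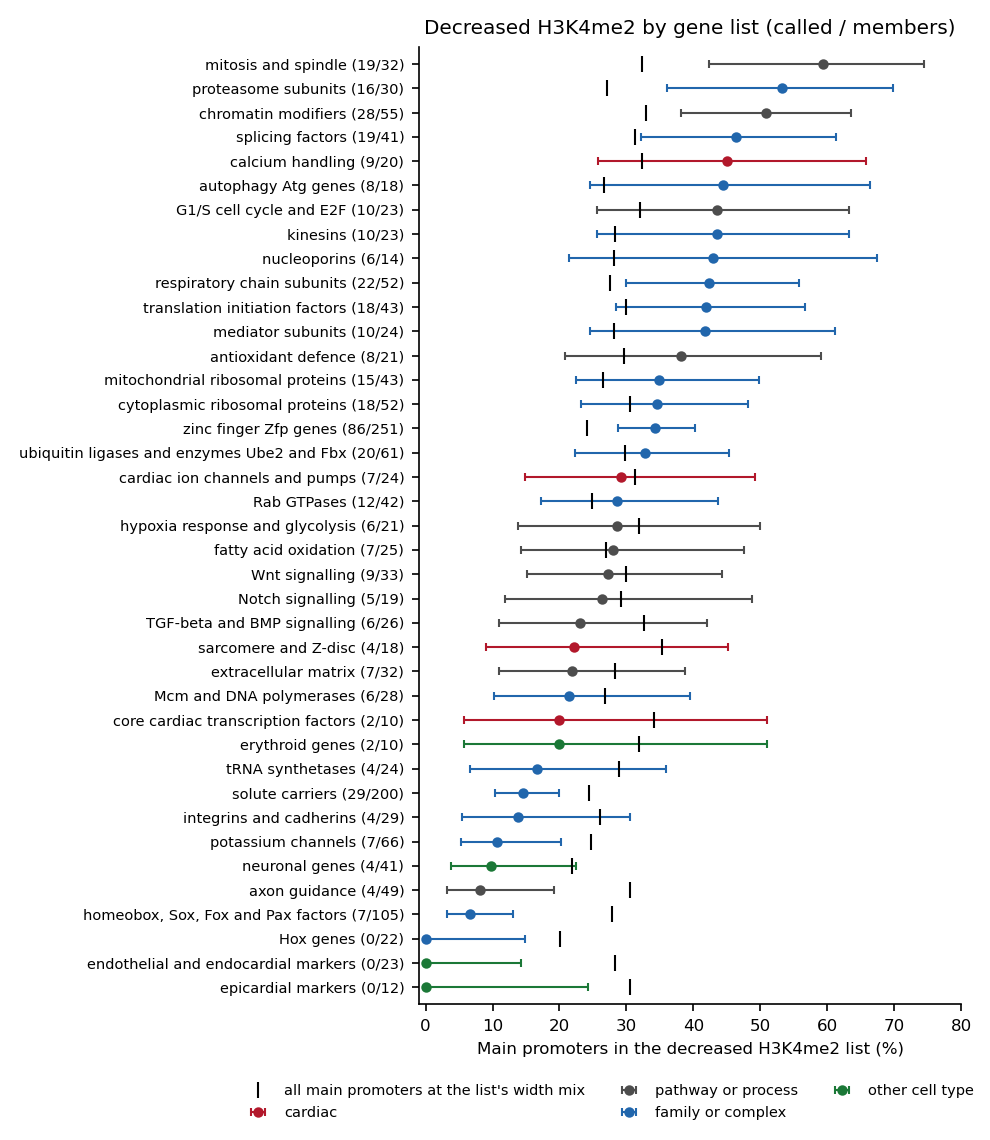
Share of main promoters in the decreased H3K4me2 list (x axis, percent) for gene lists with at least 10 main promoters (y axis, with called promoters over all main promoters of the list in brackets). Points are shares, horizontal bars are 95% Wilson intervals, colours give the kind of list, and upright ticks are the share of all main promoters at the same width mix. Mitosis and spindle genes lie highest at 59.4%, and endothelial, epicardial and Hox genes lie at 0%.

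Genes of cell division had the highest share. Decreased H3K4me2 was called at 19 of 32 main promoters of mitosis and spindle genes (59.4%, Wilson interval 42.3% to 74.5%), against 32.3% at the same width mix. They included *Wee1* (a kinase that delays mitotic entry, region 6860 bp wide), *Ect2* (a cytokinesis exchange factor, 6040 bp) and *Kif11* (a spindle motor, 5900 bp). By what is known of them, the called genes also span cyclins (*Ccnb1* and *Ccnb2*), condensins (*Smc2*, *Ncapg* and *Ncaph*), the spindle checkpoint (*Bub1* and *Mad2l1*) and *Top2a*, which were chosen after their values were seen. The checkpoint genes *Bub1b*, *Bub3* and *Ttk*, chosen in the same way, were in neither list. Among the 13 that were in neither list, *Incenp* (7760 bp) and *Aurkb* (7200 bp), partners in the chromosomal passenger complex, had the widest regions. For G1/S and E2F genes the count was 10 of 23 (43.5% against 32.0%), including *Myc* (6860 bp), *Ccne1* (cyclin E1, 5940 bp) and *Cdc25a* (a phosphatase that activates cyclin-dependent kinases, 5820 bp). *Stk11* (the LKB1 kinase, 7540 bp) and *E2f1* (6560 bp) were not called. Kinesin promoters were called in 10 of 23 cases (43.5%, Wilson interval 25.6% to 63.2%, against 28.3%), and promoters of Mcm helicase and DNA polymerase genes were called in 6 of 28 (21.4% against 26.8%).

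Chromatin and RNA-processing genes were also called often. Decreased H3K4me2 was found at 28 of 55 promoters of chromatin modifiers (50.9%, Wilson interval 38.1% to 63.6%, against 32.9% at the same width mix). *Setd2* (the enzyme that adds H3K36me3, 7540 bp), *Rnf2* (the ubiquitin ligase of Polycomb complex 1, 6720 bp) and *Mll3* (KMT2C, the closest relative of KMT2D, 6320 bp) had the widest called regions, and *Hdac9* (7680 bp) and *Chd4* (7380 bp) the widest uncalled ones. The Polycomb complex 2 genes *Ezh2*, *Eed* and *Suz12* were all called. *Kmt2d* itself, annotated under its older symbol *Mll2*, had a main promoter of 7100 bp in neither list. A chosen set of H3K4 methyltransferases, their complex subunits and H3K4 demethylases had 20 main promoters. Of these, 9 had decreased H3K4me2 (45.0%, Wilson interval 25.8% to 65.8%, against 31.0% at the same width mix) and 0 had decreased H3K4me1 (upper limit 16.1%, against 0.511% of all main promoters). The called ones were *Mll3*, *Setd7*, *Smyd3*, *Kdm6a*, *Paxip1*, *Psip1*, *Wdr82*, *Kdm1a* and *Kdm5c*. These 20 and the Polycomb genes were chosen after their values were seen. The set leaves out *Wbp7* (KMT2B), a further H3K4 methyltransferase gene, whose main promoter was in neither list. Splicing factors were called at 19 of 41 promoters (46.3% against 31.3%), the widest being the SR proteins *Srsf10* (7840 bp) and *Srsf5* (7760 bp) and the 3′ splice site factor *U2af2* (7780 bp). The count was 10 of 24 for Mediator subunits (41.7% against 28.1%) and 6 of 14 for nucleoporins (42.9% against 28.2%). The large family of Zfp zinc finger genes had 86 of 251 called (34.3%, 28.7% to 40.3%, against 24.1%), with 74 high-CpG and 54 low-CpG promoters among them.

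Other housekeeping classes were split. Proteasome subunits had 16 of 30 called (53.3%, Wilson interval 36.1% to 69.8%, against 27.1%), and respiratory chain subunits had 22 of 52 (42.3%, 29.9% to 55.8%, against 27.6%). *Psme3* (5060 bp), *Psmd5* (5020 bp) and *Psme4* (4860 bp) were the widest called proteasome promoters. *Cox5a* (complex IV, 5800 bp), *Atp5b* (ATP synthase, 5520 bp) and *Uqcrc2* (complex III, 4820 bp) were the widest of the respiratory chain. Translation initiation factors had 18 of 43 called (41.9% against 30.0%), autophagy genes 8 of 18 (44.4% against 26.7%), cytoplasmic ribosomal proteins 18 of 52 (34.6% against 30.6%) and mitochondrial ribosomal proteins 15 of 43 (34.9% against 26.5%). Ubiquitin enzymes and F-box genes had 20 of 61 (32.8% against 29.8%) and Rab GTPases 12 of 42 (28.6% against 24.9%). Aminoacyl-tRNA synthetases had 4 of 24 called (16.7%, 6.68% to 35.9%, against 28.9%), of which *Yars2* was the widest.

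Over the 4 cardiac lists together, H3K4me2 was decreased at 22 of 72 main promoters (30.6%, Wilson interval 21.1% to 42.0%) and H3K4me1 at 4 (5.56%, 2.18% to 13.4%). All main promoters gave 33.0% and 0.839% at the same width mix, so the H3K4me2 share was near that of main promoters in general. Calcium handling genes had the largest share, 9 of 20 (45.0%, 25.8% to 65.8%, against 32.3% at the same width mix). *Ppp3ca* (the calcineurin catalytic subunit, 7900 bp) and *Asph* (which also encodes junctin and junctate, 6900 bp) were the widest, and *Trdn* and *Camk2d* were also called. The calsequestrin genes *Casq2* (7240 bp) and *Casq1* (7020 bp) were in neither list. Among ion channels and pumps, 7 of 24 were called (29.2% against 31.3%), with *Kcnj8* (a pore of ATP-sensitive potassium channels, 6140 bp), *Trpm7* (a channel kinase, 6080 bp) and *Atp2b1* (5400 bp) the widest. *Kcna5* (7940 bp) and *Kcnj12* (7900 bp) were not called.

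Sarcomere and Z-disc genes had 4 of 18 main promoters in the H3K4me2 list (22.2%, Wilson interval 9.00% to 45.2%, against 35.3%). They included *Ankrd1* (a stress-responsive titin-binding protein, 7240 bp), *Lmod2* (an actin nucleator, 6920 bp) and *Nebl* (nebulette). A further 2, *Mybphl* (7140 bp) and *Myl3* (ventricular essential light chain, 6320 bp), were in the H3K4me1 list, and *Actn2* (7860 bp) and *Tpm2* (7720 bp) were in neither. In this list 12 of 18 promoters were low-CpG, and the share that all main promoters gave at the same mix of width and CpG class was 20.9%. Of the core cardiac transcription factors, 2 of 10 were called (Wilson interval 5.67% to 51.0%, against 34.1%), *Mef2a* (7860 bp) and *Hopx* (6900 bp), while *Hand1* (7580 bp) and *Tbx18* (7360 bp) were not. Most factors of that list lay outside the range of width, with 29 main TSSs in regions of 8000 bp or more, 22 of them in the H3K4me2 list. Of the sarcomere list, 21 lay in such wide regions and 6 of these were in the H3K4me2 list. For all coding genes with a main TSS in regions of that width, the share was 46.4% of 1831 (44.1% to 48.7%).

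Metabolic and stress genes were near the share of all main promoters. Decreased H3K4me2 was called at 6 of 21 hypoxia and glycolysis promoters (28.6% against 31.8%), including *Pdk1* (pyruvate dehydrogenase kinase 1, 7540 bp), *Bnip3* (a mitophagy receptor, 5200 bp) and *Pgam1* (4580 bp). *Egln1* (the prolyl hydroxylase that marks HIF for degradation) and *Pfkl*, both 7900 bp wide, were not called. For antioxidant genes the count was 8 of 21 (38.1% against 29.7%), with *Cat* (catalase, 7400 bp), *Sod1* (6380 bp) and *Txn1* (thioredoxin, 5160 bp). Fatty acid oxidation genes had 7 of 25 (28.0% against 27.0%), with *Cpt1a* (the carnitine transferase of the outer mitochondrial membrane, 5820 bp) the widest called and *Lpl* (6060 bp) the widest uncalled.

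Signalling and extracellular matrix genes lay slightly lower than all main promoters at the same width mix, but each Wilson interval included that share. The intervals were 15.1% to 44.2% for Wnt, 11.8% to 48.8% for Notch and 11.0% to 42.1% for TGF-beta and BMP genes. The Wnt list had 9 of 33 called (27.3% against 29.9%), among them *Bcl9* (a beta-catenin cofactor, 6840 bp), *Dvl3* (6460 bp) and *Apc* (5400 bp), and not the secreted antagonists *Sfrp1* (7480 bp) and *Dkk3* (7380 bp). The Notch list had 5 of 19 (26.3% against 29.2%), among them *Adam10* (the protease that cleaves Notch receptors, 6580 bp), *Maml1* (6380 bp) and *Maml3* (5560 bp, both coactivators), and not the ligand *Dll1* (7540 bp) or the glycosyltransferase *Lfng* (6640 bp). The TGF-beta and BMP list had 6 of 26 (23.1% against 32.6%), among them the receptor *Bmpr2* (7320 bp), the antagonist *Fst* (follistatin, 5920 bp) and the ligand *Tgfb3* (5920 bp), and not the endothelial coreceptor *Eng* (7920 bp) or the ligand *Bmp4* (7680 bp). Extracellular matrix genes had 7 of 32 (21.9%, 11.0% to 38.8%, against 28.3%), with *Col12a1* (7960 bp), *Lama4* (6860 bp) and *Has2* (hyaluronan synthase 2, needed for the cardiac jelly, 6400 bp) called and *Lama5* (7940 bp) and *Adamts1* (7600 bp) not. In this list 15 promoters were low-CpG, and all main promoters gave 21.4% at the same mix of width and CpG class.

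Markers of cell types in which *Tnnt2::Cre* is not active were counted separately. Of the 23 main promoters of endothelial and endocardial markers, 0 were in either list (Wilson upper limit 14.3%), against 28.3% at the same width mix and 21.0% at the same mix of width and CpG class. The widest were *Sox7* (7940 bp) and *Eng* (7920 bp), and *Cldn5* (4960 bp) was among them. Of 12 epicardial markers, 0 were in either list (upper limit 24.2%, against 30.6% at the same width mix and 19.9% at the same mix of width and CpG class, which lies within that limit), the widest being *Tbx18* (7360 bp) and *Krt18* (5760 bp). Over the 35 distinct promoters of the endothelial and epicardial lists the upper limit was 9.89%. This pool leaves out the erythroid list, and no share at its mix of width or CpG class was taken. Erythroid genes had 2 of 10 called (against 31.8% at the same width mix, or 18.9% at the same mix of width and CpG class), *Alas2* (the erythroid heme synthesis enzyme, 6980 bp) and *Tfrc* (the transferrin receptor, 5640 bp), while *Epb4.2* (7860 bp) and *Klf1* (7080 bp) were not. In regions of 8000 bp or more, which held the main TSS of 1831 coding genes with 46.4% in the H3K4me2 list, the counts were 2 of 8 for endothelial, 1 of 4 for epicardial and 7 of 11 for erythroid genes. The levels of these marks in each cell type were not measured here.

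Several families of developmental regulators, guidance molecules and membrane proteins had low shares. Hox genes had 0 of 22 (upper limit 14.9%, against 20.1% at the same width mix), although 9 of these promoters were high-CpG. Homeobox, Sox, Fox and Pax factors had 7 of 105 (6.67%, Wilson interval 3.27% to 13.1%, against 27.9%), with *Pou3f3* (6800 bp), *Foxo1* (6660 bp) and *Sox11* (6600 bp) the widest called. Neuronal genes had 4 of 41 (9.76%, 3.86% to 22.5%, against 21.8%, which lies within the interval), namely *Vamp2* (7260 bp), *Nefl* (2920 bp), *Syt1* (2580 bp) and *Syp*, and *Shank3* (5280 bp) and *Mapt* (4560 bp) were the widest uncalled. Axon guidance genes had 4 of 49 (8.16%, 3.22% to 19.2%, against 30.6%), the semaphorins *Sema6a* (6920 bp) and *Sema5a*, the receptor *Plxna2* (6580 bp) and the Eph receptor *Epha4* (6080 bp). Potassium channels had 7 of 66 (10.6% against 24.7%), solute carriers 29 of 200 (14.5% against 24.4%) and integrins and cadherins 4 of 29 (13.8%, 5.50% to 30.6%, against 26.1%, which also lies within the interval). Among the 7 called potassium channels, *Kcnd2*, *Kcnj8* and *Kcnj11* are also in the cardiac channel list. Olfactory receptors had 0 of 5 (upper limit 43.4%, against 12.8%), too few to be read. At the same mix of width and CpG class, the shares were 21.6% for Hox genes, 28.7% for homeobox, Sox, Fox and Pax factors and 30.0% for axon guidance genes.

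The 51 promoters with decreased H3K4me1 formed a small and mixed group, of which 4 were in the cardiac lists. These were *Mybphl*, *Myl3*, *Kcne1* (a slow potassium channel subunit, 5280 bp) and *Kcnj11* (the other pore of ATP-sensitive potassium channels, 5160 bp). *Pygm* (muscle glycogen phosphorylase, 5100 bp), *Dmpk* (the myotonic dystrophy kinase, 6000 bp) and *Asb2* (a ubiquitin ligase adaptor of muscle, 5120 bp) were also in the group and were chosen after their values were seen. Of the 51, 8 were in any of the 41 gene lists other than the study's own. The widest in the H3K4me1 list alone were *Plxnb1* (a semaphorin receptor, 7780 bp), *Pea15a* (7740 bp), *Ncs1* (neuronal calcium sensor 1, 7600 bp), *Kif2a* (a microtubule depolymerase, 7380 bp), *BC017612* (7160 bp) and *Mybphl*. The narrowest was *Palm3* (1460 bp), and the shortest gene was *Gm5111* (1140 bp). The CpG number in 300 bp ran from 0 in *BC017612* to 57 in *Kif2a*.

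Both marks were decreased at 3 main promoters. They made up 5.88% (Wilson interval 2.02% to 15.9%) of the 51 promoters with decreased H3K4me1. All main promoters gave 29.8% with decreased H3K4me2 at the same width mix. Of the 51, however, 72.5% were low-CpG, a class in which 10.1% of all main promoters had decreased H3K4me2. *Kcnj11* (chr7:53351386-53356545, minus strand) had a region of 5160 bp that covered its whole transcript, with 11 CpGs in 300 bp. *Sgca* (chr11:94833346-94837905, minus strand), a subunit of the sarcoglycan complex that links muscle membrane and matrix, had a region of 4560 bp that ended in a later exon, and only 264 bp of it lay upstream of the TSS. *Fam189a1* (chr7:72299786-72303125, minus strand) had a region of 3340 bp at the start of a gene of 400475 bp, with 43 CpGs in 300 bp. The 3 promoters thus belonged to an intermediate, a low and a high CpG class.

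Of the 12 genes that the study named beside a decreased mark, 5 had a main promoter of this kind. *Sgca* was in both lists, while *Klhl30* (4800 bp), *Dclk1* (2180 bp), *Mgp* (2160 bp) and *Camk2a* (1860 bp) were in neither. The study chose these genes on the same samples, so they are not independent evidence of a direction. The other 7 lay in regions that were wider or shared with another coding gene. Among the wider ones, *E2f2* (11700 bp) and *Gpx1* (8540 bp) had decreased H3K4me2, *2900026A02Rik* (10440 bp) had decreased H3K4me1, *Bcl9l* (20640 bp) was in both lists and *Gse1* (23440 bp) in neither. The shared regions at *Stradb* (26480 bp) and *Fxyd1* (6460 bp) had decreased H3K4me2.

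The X chromosome had a lower share than the autosomes as a whole. Decreased H3K4me2 was called at 60 of 338 main promoters on the X chromosome (17.8%, Wilson interval 14.0% to 22.2%) and at 26.3% of 9646 on the autosomes. At the width mix of all main promoters the shares were 20.6% and 26.2%. Among high-CpG promoters they were 22.6% of 84 and 36.6% of 3737, and among low-CpG promoters 17.3% of 98 and 9.75% of 2236. Among the autosomes, the share ran from 20.7% on chromosomes 7 and 15 to 32.2% on chromosome 13. Promoters with 3 or more coding TSSs were called in 31.1% of 2054 cases and those with a single one in 23.6% of 5393. At the width mix of all main promoters these shares were 29.5% and 24.2%. A TSS of a non-coding gene lay in 930 main promoters, of which 30.0% were called, against 25.6% of the others. These 930 were wider, at a median of 3970 bp against 3180 bp, and at the same width mix the shares were 26.8% and 25.9%. Single-exon transcripts had 14.1% of 306 called (10.6% to 18.4%) and spliced ones 26.4%.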

How the data were processed

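E11.5 control and mutant mouse hearts were profiled by ChIP-Seq for H3K4me1, H3K4me2 and H3K4me3. Per the labels and the submitters' processing notes, reads were handled with CASAVA 1.8.2, FastQC, Bowtie2, Bowtie and SAMtools on mm9. The authors called peaks, merged them and deposited 3 lists, of merged regions and of regions with decreased H3K4me1 or H3K4me2 at their own threshold. The H3K4me2 list used here, of 6699 regions, is longer than the count the paper gives at its false discovery rate threshold. The H3K4me1 list, of 2730 regions, has the paper's count. The peak caller and the differential test were not given in the sources used here. The lists hold chromosome, start and end on a grid of 20 bp and no measured value, so depth is unknown and no test across replicates was possible.

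Decreased regions were matched to merged regions by identical coordinates, and none was left unmatched. The TSSs of protein-coding transcripts of protein-coding genes came from GENCODE vM1, and coordinates are 1-based. Sequence was read from NCBIM37, and 9985 of 9988 members had a full window around the TSS. Gene length is the whole annotated gene. The transcript used for exons and introns is the longest that starts at the main TSS. Shares have Wilson intervals and differences of shares have Newcombe intervals (scipy 1.17.1, pandas 2.3.3). The Newcombe intervals, for large groups only, and differences at a common width mix were tested on simulated data. The Wilson intervals were not. A share at the width mix of all main promoters is the mean of the shares in 5 width classes, weighted by the main promoters in each.

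Genes were named by rule. They were the genes the study names, the widest called (up to 3) and uncalled (up to 2) promoters of each list, the members in both lists, the 10 widest in the H3K4me1 list alone, the extremes of gene length and width in each list, and those nearest the width limits. Others are marked as chosen after their values were seen. Some genes that meet the rule and 1 gene list are not reported here. The members and the 42 gene lists were chosen with earlier results of these data known, and 14 members share a gene symbol with another member. Alternatives covered the transcripts that give a TSS, the width limits, the autosomes, non-coding TSSs, covered length, the match of lists, the width mix, gene length and the CpG window.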

Additional observations from a re-analysis of the deposited data

How the results depend on the processing

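Of 80 values of 10 results under alternative settings, 66 stayed within the interval of the value reported, 14 moved outside it and none changed sign. With regions of at least 2000 bp the share with decreased H3K4me2 was 29.6% and the difference in downstream reach 297 bp. With regions under 4000 bp the H3K4me2 share was 21.6%, the H3K4me1 share 0.336%, the H3K4me2 difference between long and short genes 2.81 points (interval -0.140 to 5.86, which includes 0), the H3K4me2 difference between high-CpG and low-CpG promoters 21.4 points, the H3K4me1 difference between them -0.762 points, and the difference in reach 324 bp. By covered base pairs the H3K4me2 share was 29.8% and the difference by gene length 11.3 points. At the width mix of all main promoters the H3K4me2 difference by CpG class was 21.3 points and the difference in reach 37.2 bp. CpG counted in 1000 bp gave 29.8 points between the CpG classes. With the TSSs of every transcript of a coding gene, main promoters exceeded internal ones by 17.4 points. Matching the lists by an overlap of at least 1 bp gave the same values as exact matching.

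No paired analysis was possible because the deposited lists hold no value per replicate, although the titles give both genotypes the replicate numbers 1 to 3. For the same reason no replicate was left out in turn. The lists name only decreased regions at the authors' threshold. The size of a decrease, any increase and any change in H3K4me3 were not analysed here.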
